A study of Mus musculus with 8 samples.

Results

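The cytoplasmic ribosomal protein genes encode the proteins of the small (Rps genes) and large (Rpl genes) subunits of the cytosolic ribosome. Apart from the stalk proteins, each is needed in the same number per ribosome, and proliferating muscle precursors make many ribosomes before they exit the cell cycle. The mRNAs of these genes are known for a run of pyrimidines at their 5′ end, the terminal oligopyrimidine tract, through which their translation follows nutrient and growth signals.

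The genes were chosen by symbol from the raw counts of all cells (Rpl or Rps followed by digits and an optional a, x or l, together with Rpsa, Rplp0, Rplp1 and Rplp2) and by a level of at least 10 CPM, the usual scaling of a count to the total count of its sample, in each of the 4 control samples. Of 42391 gene rows, 82 had such a symbol and 77 reached the level, 31 of the small and 46 of the large subunit. Levels in the controls were used only for this minimum. The lowest member was Rps18, with 79.9 and 78.2 CPM in the C2C12 controls, and the nearest row outside was Rps4l, with 0 counts in every C2C12 sample and 5.76 to 9.40 CPM in primary myoblasts. Rpl39l held 51 and 32 counts in the pair of primary myoblast samples of experiment 2 and 0 in the other 6 samples, and Rpl3l, Rpl10l and Rpl32l were also under the minimum. Ribosomal proteins with other names (Rps3a1, Fau, Rpl36al, Rpl22l1 and Rpl7l1) and the ribosome-bound Rack1 are described beside the members.

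Poly(A) RNA was sequenced from wild-type mouse myoblasts after transfection with an siRNA against Septin9, a septin cytoskeleton gene, or with a non-targeting siRNA (control), with 2 samples in each of 4 groups. C2C12 cells, an immortal mouse myoblast line, received 50 nM siRNA, which amounted to 100 nM for the first 5 h, and were collected at 60 h, after 12 h in differentiation medium. Primary myoblasts from the hindlimbs of young mice were collected in proliferation medium at 48 h, after an early plating step on collagen that removes fibroblasts. The labels number the samples of each group 1 and 2, and the study's methods state 2 independent experiments. Within each cell type the numbers are read here as these experiments. Each Septin9 siRNA sample is compared with the control of the same number. Nothing in the labels or methods says that an experiment of C2C12 and the experiment of that number in primary myoblasts were the same.

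Between 20898611 and 27223414 reads were counted per sample, and no member had fewer than 1696 counts in any sample. Septin9 fell from 424 and 440 CPM in the C2C12 controls to 151 and 193 CPM, and from 366 and 467 to 194 and 158 CPM in primary myoblasts. Of 10 myogenic markers, all were detected in every sample, but the late markers went against the stage in the labels: Myh3 was at 3.63 to 17.8 CPM in C2C12 and at 1114 to 6274 CPM in the primary myoblasts labelled as proliferating. The summed level of 7 fibroblast markers was 350 and 306 CPM in primary myoblasts of experiment 1. In those of experiment 2 it was 846 and 1018 CPM. The sum was higher in C2C12, at 2487 to 3149 CPM, so it does not measure fibroblast content across the cell types. Col3a1 made up most of it, with 334.9 and 293.5 CPM in primary myoblasts of experiment 1 and 2334 to 2971 CPM in C2C12. In primary myoblasts Pdgfra was at 1.00 and 0.834 CPM in experiment 1 and at 31.3 and 31.8 CPM in experiment 2. Tcf21 was at 0 in all samples and Ptprc, a blood cell marker, was at or near 0. Cell type, the mice the cells came from, medium, stage and time after transfection differ together between the C2C12 and primary myoblast groups. They cannot be told apart. Nor can fewer cells of a type and less RNA per cell, since these are bulk samples.

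The sequences around the annotated start show the pyrimidine run and how unevenly it is annotated among the members. RefSeq starts on GRCm38.p6 were listed for 57 of the 77 members, 68 starts in all. A run of at least 5 pyrimidines holding the start base was found at 20 starts of 20 members, 29.4% of the members' starts and 10.1% of the 32851 starts of all genes. In the windows of 15 bases before and 15 bases from the start, read 5′ to 3′ on the gene's strand, capitals mark the longest pyrimidine run of at least 5 bases. The first 6 hold the run at the start base, and the last 5 belong to members whose levels stood out in the comparisons described here. Of the first 6, Rps18, by its own row alone, and Rpl38 were also called between the controls. There 11 of all 77 members and 34.5% of all genes were called. All of the 6 but Rps6 were called between the experiments in C2C12. There 24 of all 77 members and 35.7% of all genes were called. The 6 were shown out of 20 members with such a run, so their calls are not read as a trait of the run. Rps29, Rpl29 and Rpl8 are among the members without a listed start.
Rps18, chr17:33955651-33955680, minus strand: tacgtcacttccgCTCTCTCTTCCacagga
Rpl38, chr11:114668565-114668594, plus strand: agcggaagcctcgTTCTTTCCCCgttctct
Rpl14, chr9:120571502-120571531, plus strand: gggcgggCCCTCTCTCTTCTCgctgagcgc
Rps10, chr17:27635230-27635259, minus strand: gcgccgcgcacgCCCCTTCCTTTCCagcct
Rplp2, chr7:141447636-141447665, plus strand: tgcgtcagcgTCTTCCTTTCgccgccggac
Rps6, chr4:86857353-86857382, minus strand: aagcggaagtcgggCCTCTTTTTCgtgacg
Rpl13a, chr7:45128731-45128760, minus strand: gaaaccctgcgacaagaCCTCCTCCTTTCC
Rpl13, chr8:123102335-123102364, plus strand: TTCCCTTTCgcctgattttgattggcgttt
Rps2, chr17:24720048-24720077, plus strand: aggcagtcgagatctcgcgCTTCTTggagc
Rps3, chr7:99483695-99483724, minus strand: cttgcaagggtcgccgcgctgcgcggcgtc
Rpl26, chr11:68901551-68901580, plus strand: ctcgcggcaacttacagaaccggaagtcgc
Rpl13a, Rpl13 and Rps2 held a run beside the listed start rather than at it, and the windows of Rps3 and Rpl26 held none. Over the 250 bases before and 50 bases after the start, on either strand, the ETS core CCGGAAG, seen in the window of Rpl26, was present at 36.8% of the members' starts and 8.86% of all starts. The TATA box letters TATAAA were present at 8.82% against 13.6%. These are matches of letters and not measured sites.

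The members together took between 5.08% and 5.84% of all counted reads in every sample, with a similar total in both cell types. The sums were 53323 and 52230 CPM in the C2C12 controls and 53536 and 56700 CPM in the primary myoblast controls. Per kilobase of transcript, the median level of the members was 849 CPM in control C2C12 and 870 CPM in control primary myoblasts. Rplp1, an acidic protein of the stalk that recruits elongation factors, had the highest level per kilobase in both, 2365 and 2598 CPM. These levels are per row of the count table, and a few members, Rps18 and Rps28 among them, have further rows that are not added here. The lowest row in C2C12 was Rps18 (141 CPM per kilobase), where 91.8% to 93.1% of the reads of this gene lay in a further row, and the lowest in primary myoblasts was Rps20 (167), for which the annotated transcript of 3706 bases lowers the value. Across the 77 genes, which share their lengths in both groups, the log2 levels per kilobase had Pearson's r = 0.67 and Spearman's rho = 0.73. Both values take Rps18 by its own row, at rank 77 in C2C12 and rank 6 in primary myoblasts.

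After Septin9 siRNA the members moved together within each experiment, but in opposite directions in the experiments. In C2C12 the sum went from 53323 to 58288 CPM in experiment 1, by 9.31%, and went from 52230 to 50801 CPM in experiment 2, by -2.74%. In primary myoblasts it went from 53536 to 58436 CPM in experiment 1, by 9.15%, and from 56700 to 52301 CPM in experiment 2, by -7.76%. The sums of the control and Septin9 siRNA samples overlapped in both cell types. Both subunits showed the same signs, with 8.66% and -4.05% for the small and 9.72% and -1.93% for the large subunit in C2C12, and 8.79% and -8.41% for the small and 9.39% and -7.32% for the large subunit in primary myoblasts.

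**Figure D1:**
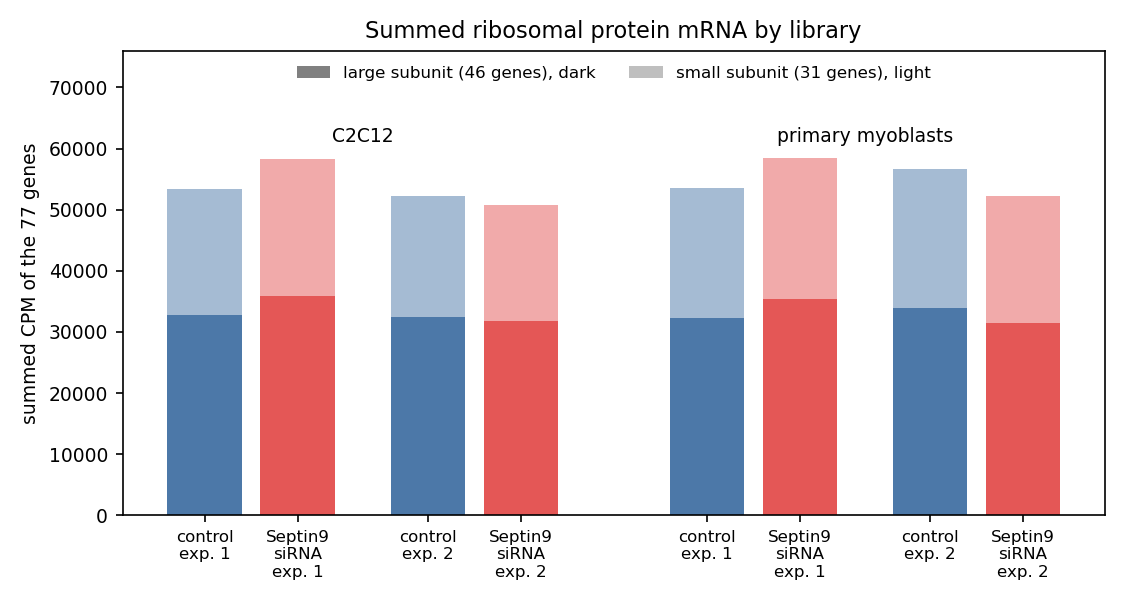
Summed CPM (vertical axis) of the 77 genes in each of the 8 samples, split into the large subunit (dark) and the small subunit (light), with controls in blue and Septin9 siRNA in red. In both cell types the Septin9 siRNA bar is above its control in experiment 1 and below it in experiment 2.

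Gene by gene, 75 of 77 members were higher after Septin9 siRNA in C2C12 experiment 1 and 19 of 77 in experiment 2. In primary myoblasts the counts were 74 and 3. Of all genes tested, 52% and 57.7% were higher in the C2C12 pairs and 43% and 50.4% in the primary myoblast pairs. The median log2 ratio of CPM within the pair was 0.14 and -0.06 in C2C12 and 0.11 and -0.12 in primary myoblasts, whereas over all genes tested it was 0.01, 0.03, -0.04 and 0.00. Scaling by the trimmed mean of M-values (TMM) gave members' medians of 0.13, -0.09, 0.15 and -0.10. The sign changed from higher in experiment 1 to lower in experiment 2 for 57 members in C2C12, for 71 in primary myoblasts and for 55 in both. With TMM the numbers of members higher were 74 and 10 in C2C12 and 75 and 3 in primary myoblasts. On the CPM scale, Rps2 and Rpl22 were higher in all 4 pairs, and 0 members were lower in all 4.
The 6 named genes outside the symbol rule showed the same signs: 6 and 1 of 6 were higher in the C2C12 pairs and 5 and 0 of 6 in the primary myoblast pairs. For 122 ribosome biogenesis factors the counts were 68 and 87 in C2C12 and 26 and 11 in primary myoblasts. That is 55.7% and 71.3%, and 21.3% and 9.02%, to be read against the shares of all genes given above. Of 79 mitochondrial ribosomal protein genes 50 and 46 were higher in the C2C12 pairs and 51 and 17 in the primary myoblast pairs, and of 20 other mRNAs with a terminal oligopyrimidine tract 19 and 15, and 10 and 2. The 20 members with a pyrimidine run at the start had medians of 0.15, -0.08, 0.10 and -0.14 in the 4 pairs, and the 37 members with a listed start and no such run 0.13, -0.04, 0.11 and -0.12. In both cell types the control of experiment 2 was also the deepest sample, with 26869868 reads against 22966420 after Septin9 siRNA in C2C12 and 27223414 against 21133806 in primary myoblasts. In experiment 1 the control and the treated sample had 21236314 and 20898611 reads in C2C12 and 23905795 and 23968879 in primary myoblasts. The level of Rn28s1, a residual ribosomal RNA entry, went from 16.9 to 6.27 and from 0.670 to 3.70 CPM in the C2C12 pairs and from 0.837 to 2.59 and from 2.42 to 18.7 CPM in the primary myoblast pairs. The part of depth and residual ribosomal RNA in the ratios was not tested.

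**Figure D2:**
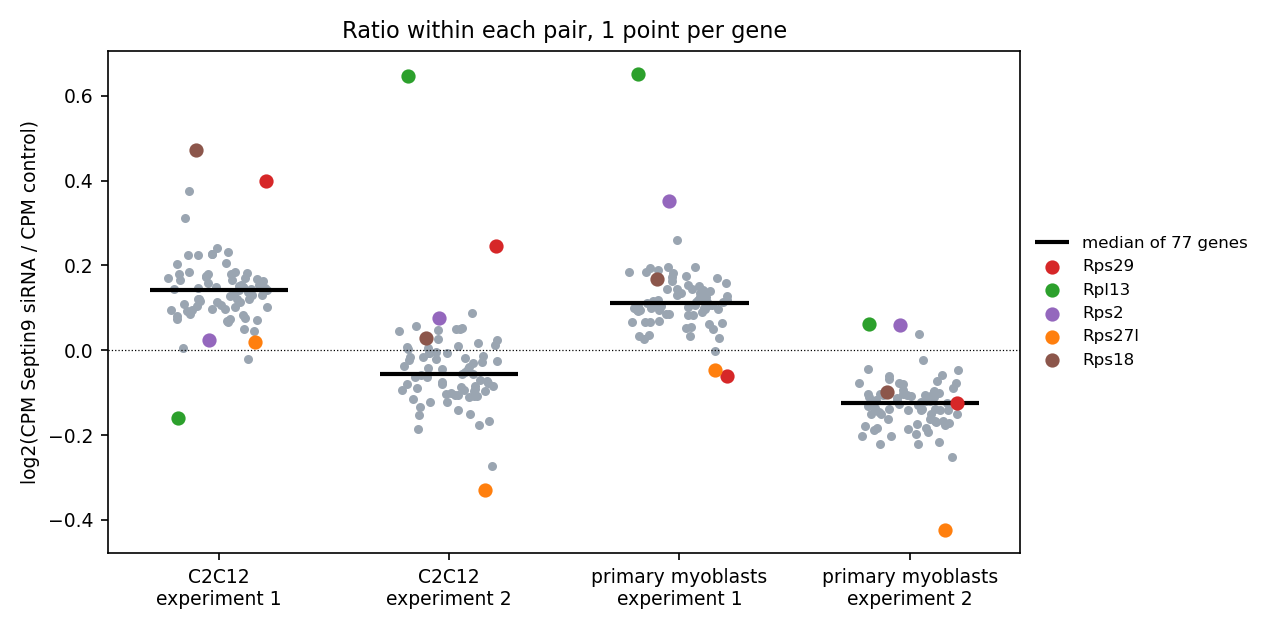
Log2 ratio of CPM after Septin9 siRNA to CPM in the control of the same experiment (vertical axis) for each of the 77 genes in the 4 pairs, with the median as a bar and 5 genes in colour. Most genes lie above 0 in experiment 1 and below 0 in experiment 2 of both cell types, whereas on this CPM scale Rps29 lies above 0 in both C2C12 pairs and slightly below 0 in both primary myoblast pairs.

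With both experiments in 1 fit and the experiment as a block, 1 of 77 members changed after Septin9 siRNA in C2C12. The test was edgeR's quasi-likelihood test, with p-values adjusted by the Benjamini-Hochberg method and called under 0.05. Over all 15814 genes tested it called 6.75% (2.64% higher and 4.12% lower). Rps29, a small zinc-binding protein of the small subunit (chr12:69157722-69159186 of GRCm38.p6), was at 235 and 219 CPM in the controls and at 310 and 260 CPM after Septin9 siRNA. Both treated samples were above both controls. Its log2 fold change was 0.30 ± 0.07 (SE), with an edgeR adjusted p of 0.0104. Without experiment 1 the adjusted p was 1 and without experiment 2 it was 0.578, each from a fit over both cell types in which the lone pair was taken to vary like the others. The median log2 fold change of the members was 0.02, against -0.00 for all genes tested.
The next highest members in C2C12 were Rps18 (0.23 ± 0.09, edgeR adjusted p = 0.141), a protein of the head of the small subunit taken here by its own row alone, and Rpl13 (0.22 ± 0.12, adjusted p = 0.337), and the lowest were Rps27l (-0.17 ± 0.08, adjusted p = 0.231), Rps7 (-0.12 ± 0.07, adjusted p = 0.427) and Rps27 (-0.09 ± 0.08, adjusted p = 0.619). With the further rows of Rps18 added, it went from 1165 to 1356 CPM in experiment 1 and from 1126 to 1107 CPM in experiment 2, and its log2 fold change became 0.07 (adjusted p = 0.713). Of the 77 members, 4 had an unadjusted p under 0.05, where 2962 of all 15814 genes tested did.

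In primary myoblasts 0 of 77 members passed the same edgeR test, against 4.99% of all 17117 genes tested (3.95% higher and 1.04% lower). An unadjusted p under 0.05 was found for 1 member and 2864 genes. DESeq2 also called 0. The median log2 fold change of the members was 0.03, against 0.01 for all genes. Rpl13, a large-subunit protein, had the highest log2 fold change (0.39 ± 0.15, edgeR adjusted p = 0.183) and 514 and 720 CPM in the controls against 807 and 751 CPM after Septin9 siRNA. Most of that difference came from experiment 1. Rps2, a protein of the mRNA entry channel, was at 1487 and 1921 CPM in the controls and 1899 and 2003 CPM after Septin9 siRNA (0.24 ± 0.16, adjusted p = 0.496). Without experiment 2, Rpl13 (0.71, adjusted p = 0.000158) and Rps2 (0.41, adjusted p = 0.0257) were called, and without experiment 1, Rps27l (-0.42, adjusted p = 0.00188), again from fits over both cell types in which the lone pair was taken to vary like the others. With both experiments Rps27l had -0.20 ± 0.12 (adjusted p = 0.456). Rps29 was at 302 and 325 CPM in the controls and at 290 and 298 CPM after Septin9 siRNA, with an edgeR adjusted p of 0.868. On the CPM scale both treated samples were below both controls, whereas with relative log expression size factors all 77 members, Rps29 included, were higher after Septin9 siRNA in experiment 1. The remaining named extremes were Rpl22 (0.13 ± 0.12, adjusted p = 0.678) and Rps27 (-0.06 ± 0.13, adjusted p = 0.878).

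**Figure D3:**
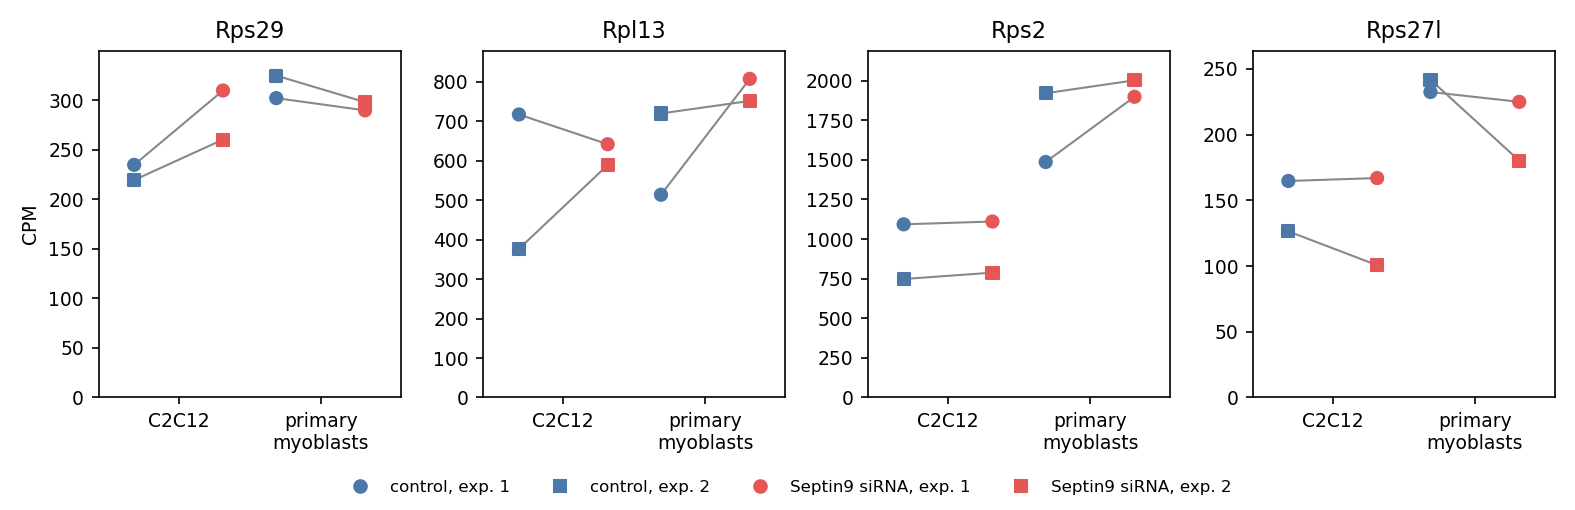
CPM (vertical axes, from 0) of Rps29, Rpl13, Rps2 and Rps27l in each of the 8 samples, with controls in blue, Septin9 siRNA in red, circles for experiment 1, squares for experiment 2 and a line for each pair. Rps29 rises in both C2C12 pairs, and Rpl13 has slopes of opposite sign in the C2C12 pairs.

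The difference of the siRNA effect between the cell types was tested by an interaction term over all 8 samples, and 0 of 77 members passed in edgeR, where 0 of all 17918 genes tested passed (0%). DESeq2 also called 0 members. An unadjusted p under 0.05 was found for 1 member and 1469 genes. For Rps29 the effect in primary myoblasts was lower than in C2C12 by 0.37 on the log2 scale (log2 difference -0.37 ± 0.13, edgeR adjusted p = 0.484), and for Rps2 it was higher (0.20 ± 0.17, adjusted p = 0.805).

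By role, the stalk genes Rplp0, Rplp1 and Rplp2 had log2 fold changes after Septin9 siRNA from 0.02 to 0.05 in C2C12 and from 0.01 to 0.07 in primary myoblasts, and 0 of 3 passed. Rpl5 and Rpl11, which join the 5S ribosomal RNA and can bind the p53 ligase Mdm2, had log2 fold changes of -0.01 at the median in C2C12 and 0.04 in primary myoblasts. Of 9 genes mutated in Diamond-Blackfan anaemia, a disease of red cell formation, 0 passed in either cell type, with ranges from -0.12 to 0.11 and from -0.05 to 0.06. Among the genes often used as reference genes (Rplp0, Rpl13a, Rps18, Rpl19, Rpl32, Rpl4 and Rps29), 1 of 7 passed in C2C12, Rps29, and 0 in primary myoblasts. Rps27l, the p53-responsive paralogue of Rps27, went from 165 to 167 and from 126 to 101 CPM in the C2C12 pairs and from 232 to 225 and from 242 to 180 CPM in the primary myoblast pairs.

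Genes that work with the members are read against the 6.75% of all genes called in C2C12 and the 4.99% in primary myoblasts. In C2C12, 1 of 122 ribosome biogenesis factors rose after Septin9 siRNA, the small-subunit assembly factor Bysl (0.32 ± 0.07, edgeR adjusted p = 0.00787), and 2 of 79 mitochondrial ribosomal protein genes fell, Mrps9 (-0.39 ± 0.08, adjusted p = 0.00412) and Mrps5 (-0.38 ± 0.08, adjusted p = 0.00793). Of 20 other mRNAs with a terminal oligopyrimidine tract, 1 rose, the snoRNA host Snhg1 (0.27 ± 0.08, adjusted p = 0.0408), and of 50 translation factors 0 passed. In primary myoblasts the biogenesis factors had a median log2 fold change of -0.12 with 17 of 122 above 0, against 0.01 and 8845 of 17117 for all genes tested. Among them Zfp622 rose (0.42 ± 0.11, adjusted p = 0.0318) and Nle1 fell (-0.53 ± 0.14, adjusted p = 0.0341). Of 16 regulators tested 1 passed, Myc, a transcription factor that drives ribosome production, which fell (-0.41 ± 0.11, adjusted p = 0.0323). Of these 16 genes 11 had a log2 fold change above 0, with a median of 0.07. Of 79 mitochondrial ribosomal protein genes 1 passed, Mrps34, which rose (0.64 ± 0.13, adjusted p = 0.00651). Of the 6 named genes outside the symbol rule, 0 passed in either cell type.

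Between the experiments, C2C12 of experiment 2 had less of many members than C2C12 of experiment 1. In the same edgeR fit 24 of 77 members fell and 0 rose, against 35.7% of all genes called in either direction (17.4% higher and 18.3% lower). The median log2 fold change was -0.14, against 0.01 for all genes tested. Rps27l was at 165 and 167 CPM in experiment 1 and at 126 and 101 CPM in experiment 2 (log2 fold change -0.58 ± 0.08, edgeR adjusted p = 1.03e-05). Rps2 was at 1093 and 1111 CPM in experiment 1 and at 748 and 788 CPM in experiment 2 (-0.55 ± 0.08, adjusted p = 1.31e-05). Rpl13 was at 717 and 642 CPM in experiment 1 and at 377 and 589 CPM in experiment 2 (-0.55 ± 0.12, adjusted p = 0.00108). For these 3 genes the samples of the experiments did not overlap. DESeq2 called 13 members, without Rpl13 (adjusted p = 0.345), where it called 2570 of all 15814 genes tested. The fit over all 8 samples called 2, Rps27l and Rps2, where it called 3464 of all 17918 genes tested.
Rpl8, which reaches the peptidyl transferase centre, was at 1288 and 1382 CPM in experiment 1 and at 1038 and 1024 CPM in experiment 2 (-0.40 ± 0.08, adjusted p = 0.000629), and Rpl14 also fell (-0.28 ± 0.07, adjusted p = 0.00539). The 24 members included 11 of the small and 13 of the large subunit, and the smallest called change was that of Rps13 (-0.19 ± 0.07, adjusted p = 0.0408). The highest values, which did not pass, were those of Rpl39 (0.14), Rps27 (0.11) and Rpl10 (0.09).
Of 122 biogenesis factors 67 fell and 1 rose, led by the snoRNP proteins Nhp2 (-0.86 ± 0.07, adjusted p = 2.62e-08) and Fbl (-0.76 ± 0.07, adjusted p = 5.91e-08) and by Lyar (-0.83 ± 0.08, adjusted p = 1.07e-07). Of 50 translation factors 24 fell and 3 rose, with Eif5a lowest (-0.84 ± 0.07, adjusted p = 2.88e-08), and of 79 mitochondrial ribosomal protein genes 31 fell and 1 rose. In the same samples 9 of 10 myogenic markers rose, with Myog, a transcription factor of differentiating myoblasts, at 5.37 and 16.4 CPM in experiment 1 and at 38.0 and 66.4 CPM in experiment 2. Of 5 fibroblast markers tested, Dcn (2.24 ± 0.34), Ly6a (0.63 ± 0.08) and Pdgfra (0.55 ± 0.11) rose and 1 fell. All 3 entries of nuclear and ribosomal RNA tested as signs of RNA quality were called, 2 higher and Rn28s1 lower (-2.42). The parts of the stage of differentiation, of other cells and of RNA quality in the members' difference were not tested.
In primary myoblasts 0 of 77 members differed between the experiments in the edgeR test, against 24.5% of all genes (12.5% higher and 11.9% lower). An unadjusted p under 0.05 was found for 0 members and 5901 of 17117 genes. DESeq2 also called 0. The median log2 fold change was -0.10, with Rpl30 lowest (-0.25 ± 0.13, adjusted p = 0.196) and Rps2 highest (0.19 ± 0.16, adjusted p = 0.428). This was the comparison in which the fibroblast marker Col1a1 differed most. It was at 6.65 and 4.51 CPM in experiment 1 and at 246 and 375 CPM in experiment 2. Of 10 myogenic markers 7 fell and 0 rose in primary myoblasts of experiment 2, whereas 9 rose and 0 fell in C2C12. The members' median was below 0 in both cell types. The parts of Col1a1 and of the stage of differentiation in the members' values were not tested.

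Between the controls, 11 of 77 members were lower in C2C12 than in primary myoblasts and 0 higher, against 34.5% of all 17103 genes called in either direction (18.3% lower and 16.2% higher). The median log2 fold change of the members was -0.10. With DESeq2 16 members were lower and 1 higher, with library size alone 8 and 1, and with a length and GC offset 7 and 1. Over all genes these settings called 6455 of 17103, 5951 of 17103 and 4330 of 13215. With the offset the members' median was -0.02. By the values alone, both C2C12 controls were below both primary myoblast controls for 33 members and above them for 29, where 34.6% and 40.4% of all genes did so.

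**Figure D4:**
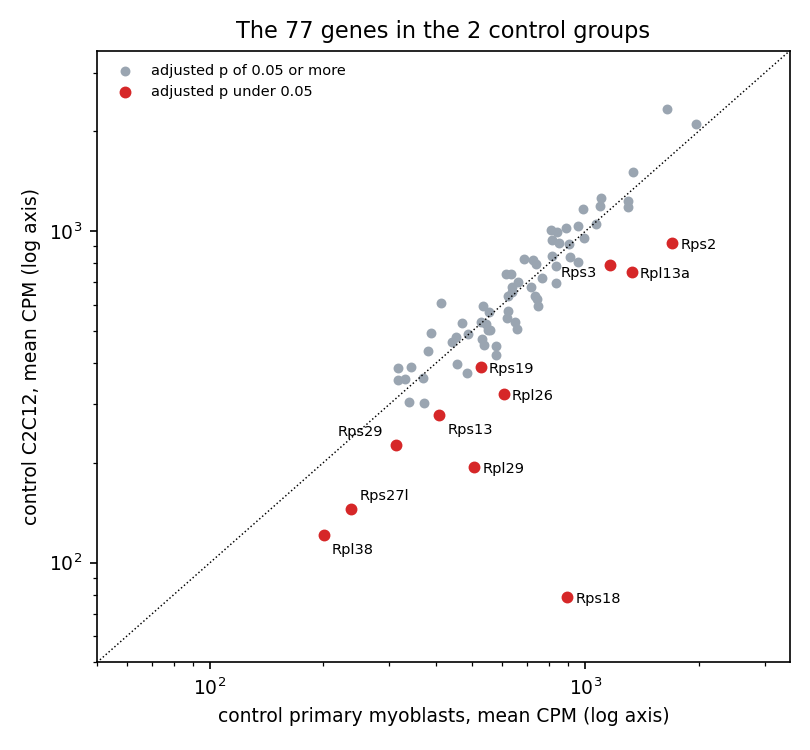
Mean CPM of the 77 genes in control C2C12 (vertical, log axis) against control primary myoblasts (horizontal, log axis), 2 samples each, with the line of equal levels and the 11 genes with an adjusted p under 0.05 in red. Rps18 stands farthest from the line.

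Rps18 was lowest by far in its own row, with 79.9 and 78.2 CPM in control C2C12 and 875 and 913 CPM in control primary myoblasts (log2 fold change -3.57 ± 0.15, edgeR adjusted p = 0.00216). The count table holds 4 rows for this gene, the first 2 equal within 1 count in every sample and the last 2 identical. The row named Rps18_2 held 23045 and 28159 counts in control C2C12 against 1696 and 2101 in the row Rps18, and 1918 and 2098 counts in control primary myoblasts against 20925 and 24861. Of the reads in both rows, 91.8% to 93.1% lay in Rps18_2 in the 4 C2C12 samples and 7.09% to 8.60% in the 4 primary myoblast samples. With the rows added, each set of equal copies once, Rps18 was at 1165 and 1126 CPM in control C2C12 and 956 and 990 CPM in control primary myoblasts, and the log2 fold change became 0.17 (adjusted p = 0.401). The direction in its own row is thus lost once the rows are added. The reads of the copies cannot be assigned beyond what the rows show.

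**Figure D5:**
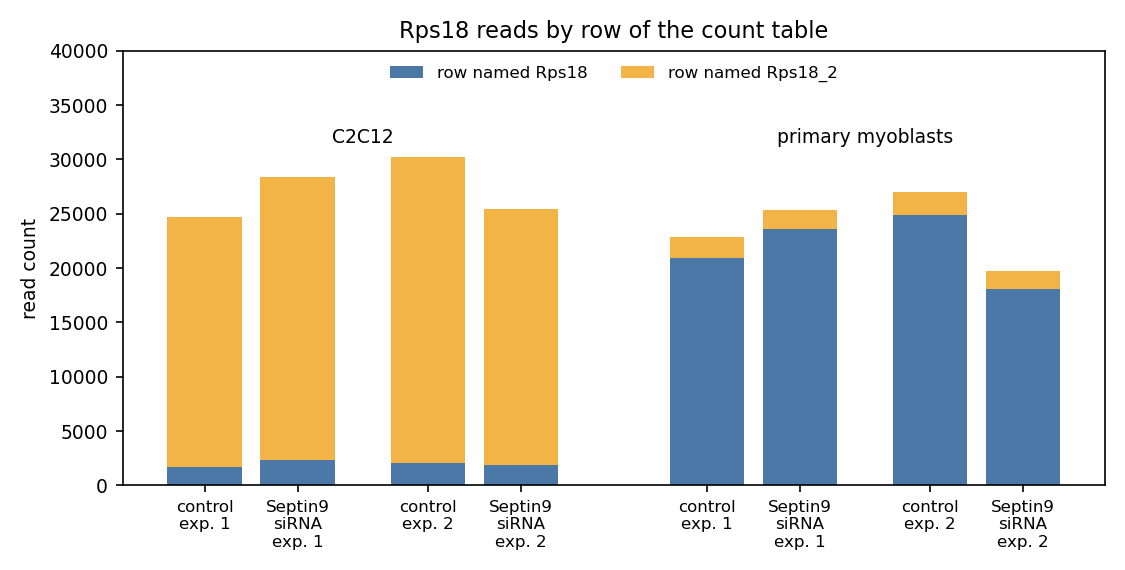
Read counts (vertical axis) of the rows Rps18 (blue) and Rps18_2 (yellow), stacked for each of the 8 samples. Nearly all reads lie in Rps18_2 in C2C12 and in Rps18 in primary myoblasts, and the stacked totals lie between 19735 and 30260.

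Rps28, Rps10 and Rpl10a also had further rows, with Rps28_2 at 2744 to 4852 counts beside 6389 to 10379 in Rps28, a split that was similar in both cell types. Rows named as pseudogenes differed between the cell types too, with Rps18-ps4 at 51.0 to 62.3 CPM in C2C12 and 3.64 to 4.26 CPM in primary myoblasts, and Rps15a-ps6 at 32.6 to 37.6 CPM and 1.13 to 1.84 CPM. Reads of near-identical copies can lie in different rows, so a level of a single row is uncertain for Rps18, Rps28 and the genes with such pseudogene rows. Why the rows differed between the cell types was not tested. The further row of Rps10 held the same counts as Rps10 in every sample. That of Rpl10a was close to its first row, at 12922 to 18938 counts beside 13132 to 19118.

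Of the other members called between the controls, Rpl29 was at 205 and 184 CPM in C2C12 and 489 and 522 CPM in primary myoblasts (-1.45 ± 0.15, edgeR adjusted p = 0.00602). Rpl26, a large-subunit protein that can bind the p53 mRNA, was at 311 and 335 CPM against 596 and 614 CPM (-0.97 ± 0.15, adjusted p = 0.0117). Rps2 was at 1093 and 748 CPM against 1487 and 1921 CPM (-0.96 ± 0.24, adjusted p = 0.0387), the largest standard error among the called members. Rpl13a, known for a second role in silencing inflammatory mRNAs, was at 745 and 764 CPM against 1340 and 1312 CPM (-0.88 ± 0.14, adjusted p = 0.0139). For these members the groups did not overlap.
Rpl38, needed for the translation of Hox mRNAs in the mouse embryo, was at 124 and 118 CPM against 199 and 202 CPM (-0.80 ± 0.13, adjusted p = 0.0140). The other called members were Rps27l (-0.78 ± 0.17), Rps3 (-0.63 ± 0.14), Rps13 (-0.62 ± 0.14), Rps29 (-0.53 ± 0.14) and Rps19 (-0.51 ± 0.14), with edgeR adjusted p between 0.0276 and 0.0457. Rps19 is the gene most often mutated in Diamond-Blackfan anaemia. Without 1 of the control samples between 1 and 5 of the 11 members were called, Rps18 each time, and with C2C12 control 2 left out it was the only one.
Rpl30 was the highest member, at 595 and 619 CPM in C2C12 and 422 and 404 CPM in primary myoblasts (0.49 ± 0.14, edgeR adjusted p = 0.0558). Rpsa, which also serves as a laminin receptor, was at 2444 and 2241 CPM against 1541 and 1752 CPM (0.44 ± 0.15, adjusted p = 0.0823). Neither passed, although the groups did not overlap for either gene. Rplp0 differed by 0.03 (adjusted p = 0.877), Rplp1 by -0.20 (adjusted p = 0.304) and Rplp2 by -0.44 (adjusted p = 0.0737), so the 3 stalk genes did not pass. Rpl5 (-0.09 ± 0.14) and Rpl11 (-0.19 ± 0.14) did not pass either. Among the paralogues, Rpl36al was lower in C2C12 (-0.61 ± 0.13, adjusted p = 0.0238) whereas Rpl36a was not called (0.10 ± 0.14, adjusted p = 0.615), and Rps4l was at 0 counts in C2C12 whereas Rps4x differed by 0.05 (adjusted p = 0.798).

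Between the controls, 83 of 122 biogenesis factors were lower in C2C12 and 2 higher, where 18.3% of all genes were lower and 16.2% higher, with a median log2 fold change of -0.82, against -0.10 for the members and -0.01 for all genes tested. The lowest were Wdr46 (-2.59 ± 0.24, adjusted p = 0.00505), Rrp12 (-2.31 ± 0.27, adjusted p = 0.00767) and Utp4 (-1.86 ± 0.15, adjusted p = 0.00421), which act in small-subunit processing and export. Of 50 translation factors 20 were lower and 1 higher, of 79 mitochondrial ribosomal protein genes 21 were lower and 1 higher, and of 20 other mRNAs with a terminal oligopyrimidine tract 4 were lower and 1 higher. Of 16 regulators tested 5 were lower in C2C12 and 0 higher. Among the 5 were Myc (-1.15 ± 0.25, adjusted p = 0.0276) and Mtor (-1.13 ± 0.19, adjusted p = 0.0146), a kinase that controls the translation of mRNAs with such a tract.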

How the data were processed

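Poly(A) RNA of 8 samples was sequenced as paired-end reads. Per the paper's methods and the submitters' processing notes, the authors mapped reads to GRCm38.p6 with STAR 2.7.2, counted them per gene with featureCounts 2.0.1 and deposited raw counts of all samples. A normalized signal per cell type, from counts that the authors adjusted with ComBat-Seq and divided by DESeq2 (1.40.1) size factors, was also deposited. In that signal 100% of values were whole multiples of 1 read (tolerance 0.01), and the reads were used only as an alternative. How strand was counted is not given in the sources used here. The count table named 2379 rows as further copies, and 16 broken lines were left out.

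Raw counts were tested with edgeR 4.0.16 in R 4.3.3 (filterByExpr, TMM, quasi-likelihood test, Benjamini-Hochberg over all genes tested, threshold 0.05), for each cell type with the experiment as a block and for the controls without one. All 77 members passed the filter. The replicate numbers are those of the labels, and the study's methods state 2 independent experiments. Samples with the same number deviated together, with correlations of 0.678 (C2C12) and 0.820 (primary myoblasts), whereas nothing pairs the numbers across cell types. In the fits with a block, the p-values rest on the spread left after the experiment and the siRNA are taken out. That spread is how far the pairs of a cell type disagree. For the controls they rest on the spread between the 2 samples of a group. In all of them edgeR also draws on the spread of other genes. CPM used the total count. Lengths are those of the shortest principal GENCODE transcript, and gene positions and starts are those of RefSeq. Named genes were, per comparison, the 5 highest and 5 lowest called members with the same sign in both pairs, or the 3 highest and lowest where fewer than 3 passed, the lists of stalk, 5S, paralogue, reference, anaemia and other ribosomal protein genes, and the 3 largest called of each related list. Rpl8, Rps13 and the rows of copies and pseudogenes beyond that rule were chosen after their values were seen. Alternatives were other size factors, filters, thresholds and fits, DESeq2 1.42.0, merged copies, a length and GC offset (mgcv 1.9.3) and leaving out samples. Scripts were tested on simulated data. An item of the lists beside the members is not reported here. The members and lists were chosen with earlier results of these data known.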

Additional observations from a re-analysis of the deposited data

Results flagged for a closer look

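On the CPM scale the pairs of Rps29 had opposite signs in the cell types: the mean log2 ratio of its C2C12 pairs was 0.323, whereas the primary myoblast pairs were at -0.06 and -0.12. Neither the primary myoblast change (edgeR adjusted p = 0.868) nor the interaction test of the difference (adjusted p = 0.484) passed. With relative log expression size factors all 77 members were higher in the primary myoblast pair of experiment 1, so the sign of that pair depends on the scaling. The row Rps18_2, which is no member, held up to 28159 counts, in the C2C12 control of experiment 2. Rps4l, under the minimum level in the controls, held up to 256 counts in primary myoblasts of experiment 2 and 0 in C2C12. Rpl39l held up to 51 counts in primary myoblasts of experiment 2 and 0 in the other experiment and in C2C12.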

How the results depend on the processing

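The count of called members in C2C12 after Septin9 siRNA was 1. It became 2 with library size alone (the row Rps18 added, which leaves out the 91.8% to 93.1% of the gene's C2C12 reads in Rps18_2) and 0 with an adjusted p of 0.01, with the study's minimum fold change added, with all 8 samples in 1 fit, with no replicate block and with the length and GC offset and no replicate block (an alternative chosen after seeing the data). With no replicate block 0 genes in all were called. Of all 15814 genes tested, 1068 were called in the main fit and 1401 with library size alone. At an adjusted p of 0.01 it was 491, and with the minimum fold change 248. With all 8 samples in 1 fit 111 of 17918 genes were called. Leaving out replicate 1 or 2 gave 0 and 0. Rps29 was called in 9 of 14 alternatives, with log2 fold changes from 0.20 to 0.41. In primary myoblasts the count of 0 became 1 (Rpl13) with no filter and with DESeq2 on reads recovered from the batch-corrected signal. These called 1256 of 27057 and 931 of 17083 genes, against 854 of 17117 in the main fit. For experiment 2 against experiment 1 in C2C12 the count of 24 became 13 with DESeq2 (12 shared), 8 at an adjusted p of 0.01, 0 with the minimum fold change and 2 with all 8 samples in 1 fit. Over all genes tested, DESeq2 called 2570 of 15814 there and the fit of all 8 samples called 3464 of 17918. At an adjusted p of 0.01 it was 3863 of 15814 and with the minimum fold change 1788, against 5638 in the main fit. Leaving out a replicate could not be run for that comparison. Between the controls the count of 11 became 17 with DESeq2 (11 shared), 2 at an adjusted p of 0.01 and 5 with a replicate block. Of all 17103 genes tested there, 5901 were called in the main fit and 6455 with DESeq2. At an adjusted p of 0.01 it was 1484, and with a replicate block 4326. Merging the copies, chosen after seeing the data, turned Rps18 between the controls from -3.57 to 0.17. The interaction count was 0 to 1 without 1 sample, the 1 being Rps29 without primary myoblast replicate 1 (adjusted p = 0.0326). The causes were not tested. The p-values rest on 2 samples a group, or on fewer where a sample was left out, and counting error is small for members with 1696 or more counts per sample.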
